A study of Homo sapiens with 12 samples.

Results

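The ID genes and the BMP signalling genes examined here were 9 genes of the 20263 in the deposited table: ID1, ID2, ID3, ID4, SMAD6, SMAD7, SMAD9, BMP2 and BMP4. They were chosen by symbol as the ID family, SMADs of the BMP branch and BMP ligands, and each matched 1 Ensembl identifier. The choice was made with values from these libraries already known, so the levels of these 9 genes and their differences between groups are given as a description without p-values. Messenger RNA was sequenced in U-87 MG (U87), an established human glioblastoma cell line, kept in 1% O2 in all 4 groups. The vector group carried an empty vector, and the other groups were knocked out for HIF1α (HIF1α-ko), for HIF2α (HIF2α-ko) or for both, which is HIF1α/2α-ko or the dual knockout. Each group had 3 libraries. The record of the sequencing gives 72 h of hypoxia, whereas the methods of the study give a shorter time for mRNA detection in general. No group kept in normal oxygen was analysed here, so every difference is between hypoxic cells. How the knockouts were made and whether a group is 1 clone or a pool are not given in the sources used here, nor whether the 3 libraries of a group came from separate cultures, so that p-values measure the spread between these libraries, which may be technical.

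BMP ligands bind paired type I and type II serine/threonine kinase receptors, which phosphorylate the receptor SMADs SMAD1, SMAD5 and SMAD9, and these enter the nucleus with SMAD4. ID1, ID2 and ID3 are classic direct targets of this pathway, and the ID proteins hold basic helix-loop-helix (bHLH) transcription factors away from DNA. SMAD6 and SMAD7 are inhibitory SMADs that dampen receptor signalling, and in glioma BMP signalling is known for driving differentiation, whereas ID proteins are tied to the undifferentiated state.

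Each gene's promoter was taken from RefSeq (GRCh38.p14) as the 250 bases before a start that RefSeq gives, which the table held for 8 of the 9 genes (not BMP2). These starts differ from the outer ends of the GENCODE 29 spans given below, so several windows lie inside those spans, and GENCODE exons cover 34 bases of the SMAD9 window, 202 of the ID2 window and all 250 of the ID3 window. The windows of ID1 and SMAD9 are printed below, since ID1 was higher in all 3 knockout groups and SMAD9 lower in both groups knocked out for HIF1α, and since most of their bases lie outside exons. Capitals mark the core of the hypoxia response element, ACGTG or GCGTG read on either strand, and the runs stop where GENCODE 29 places the first base of an exon. ID1 lies at chr20:31605039-31605282 on the plus strand and SMAD9 at chr13:36920273-36920488 on the minus strand.
ID1: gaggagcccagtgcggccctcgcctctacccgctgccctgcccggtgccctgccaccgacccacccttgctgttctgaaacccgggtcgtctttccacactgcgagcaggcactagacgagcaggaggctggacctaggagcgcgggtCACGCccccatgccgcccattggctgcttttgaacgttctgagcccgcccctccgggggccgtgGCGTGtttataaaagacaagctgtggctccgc
SMAD9: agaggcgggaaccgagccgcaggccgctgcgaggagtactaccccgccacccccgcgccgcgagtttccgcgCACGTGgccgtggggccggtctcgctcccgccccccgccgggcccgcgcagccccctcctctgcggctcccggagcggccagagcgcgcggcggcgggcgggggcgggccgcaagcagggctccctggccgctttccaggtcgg
The 2 matches in SMAD9 overlap, because CACGTG reads the same on both strands, and it is also a match to the E-box CANNTG, the letters that bHLH proteins bind. In the full 250 bases there were 2 matches to the core for ID1, 3 for the mostly exonic window of ID2, 2 for the exonic window of ID3, 1 for SMAD6, 2 for SMAD9 and 0 for ID4, and SMAD7 and BMP4 held matches in 1 and 2 of their 3 windows. A core match was present in 43.2% of the 35116 windows of this length in the table, and the E-box in 61.8%. The GC-rich letters GGCGCC, to which SMAD proteins are known to bind, were in 16.4% of all windows and among the 8 genes with a window only in 1 of BMP4. A match is a description of the letters and not a site of binding.

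The table holds TPM, which corrects reads for gene length and brings every library to the same total, so sequencing depth is unknown and levels of different genes can be set side by side. HIF1A was at 48.5 ± 9.35 TPM in HIF1α-ko against 124 ± 23.5 in vector, and EPAS1, which encodes HIF2α, was at 107 ± 17.0 in HIF2α-ko against 322 ± 31.5 (mean ± SD, n = 3), so both transcripts were reduced and not absent. In the dual knockout EPAS1 was at 117 ± 14.4 TPM and HIF1A at 75.5 ± 11.9, which was below every vector library but above every HIF1α-ko library. HIF1A overlapped there with HIF2α-ko (86.8 ± 18.1), where it was not the target, so its mRNA does not set the dual knockout apart from HIF2α-ko. The line expressed the mesenchymal glioma markers VIM (5635 to 14690 TPM) and CD44 (399 to 1412), whereas SOX2 was at 0 in 7 libraries and GFAP reached 0.639 at most. Of 5 immune markers CD68, a lysosomal protein gene that is not restricted to immune cells, was at 587 to 1633 TPM, whereas PTPRC was at 0 in 10 libraries and AIF1, CD3E and CD14 reached 0.763 at most. The epithelial markers EPCAM, CDH1 and KRT19 reached 0.575, 0.198 and 2.64 TPM. In bulk RNA, fewer cells of a type and less RNA per cell cannot be told apart. Vector replicate 1 stood apart, with Pearson's r across genes of 0.968 and 0.966 with the other vector libraries against 0.989 between these, so values without it are given where its removal changed a call against vector of a gene described here. Replicate 1 stood apart in each knockout group too, by less. Its r was 0.982 and 0.983 against 0.991 in HIF1α-ko, and 0.985 and 0.985 against 0.992 in HIF2α-ko. In the dual knockout it was 0.975 and 0.977 against 0.992. The 11731 genes that reached 1 TPM in at least 3 libraries were tested with limma on log2(TPM + 1), and a gene is called where the Benjamini-Hochberg adjusted p is under 0.05. The median difference of all tested genes from vector was 0.18 for HIF1α-ko, -0.04 for HIF2α-ko and 0.21 for the dual knockout on this log2 scale, and close to 0 after median ratio scaling. Over all tested genes, 66.4% of calls for HIF1α-ko and 68.2% for the dual knockout were higher than vector, against 45.4% and 52.1% after that scaling, and for HIF2α-ko 46.3% against 56.5%. The 3 comparisons with vector share the vector libraries.

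Of the 9 genes, 6 passed the filter: ID1, ID2, ID3, SMAD7, SMAD9 and BMP2. In HIF1α-ko 4 of these 6 were called (ID1 and ID3 higher, ID2 and SMAD9 lower), where 26.1% of all tested genes were called, 17.3% higher and 8.77% lower. In HIF2α-ko 3 were called, all higher (ID1, ID3 and BMP2), beside 5.07% of all tested genes called higher and 11.0% in either direction. In HIF1α/2α-ko 5 were called (ID1, ID3 and BMP2 higher, ID2 and SMAD9 lower), beside 46.7% (31.8% higher and 14.8% lower). The dual knockout differed from HIF1α-ko in 3, all higher (ID3, SMAD7 and BMP2), beside 28.3% (17.7% higher), and from HIF2α-ko in 4 (ID3, SMAD7 and BMP2 higher, SMAD9 lower), beside 46.4% (33.5% higher and 12.9% lower). The interaction, that is the difference in the dual knockout less the sum of the differences in the single knockouts, was called for 0 of the 6 by limma, beside 20.6% of all tested genes (13.2% higher and 7.35% lower), but ID1, SMAD7 and SMAD9 were called under some alternatives. Libraries of the groups compared did not overlap for 2 of the 6 genes for HIF1α-ko against vector (39.6% of all tested genes), 4 for HIF2α-ko (30.5%) and 5 for the dual knockout (50.5%). They did not overlap for 4 between the dual knockout and HIF1α-ko (44.3%) and for 5 between it and HIF2α-ko (56.7%). The median difference of the 6 genes from vector was 0.11 for HIF1α-ko, 0.88 for HIF2α-ko and 1.30 for the dual knockout. Since the genes were chosen with these contrasts known, nothing is read from these counts. After median ratio scaling or quantile normalization, the call of ID3 in HIF1α-ko was lost, so that 1 gene was called higher and 2 lower. Against HIF2α-ko, the same scalings left 1 higher and 2 lower, with ID3 and SMAD7 no longer called and ID2 called lower. No called difference of the 6 genes changed sign under any alternative that was run.

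**Figure D1:**
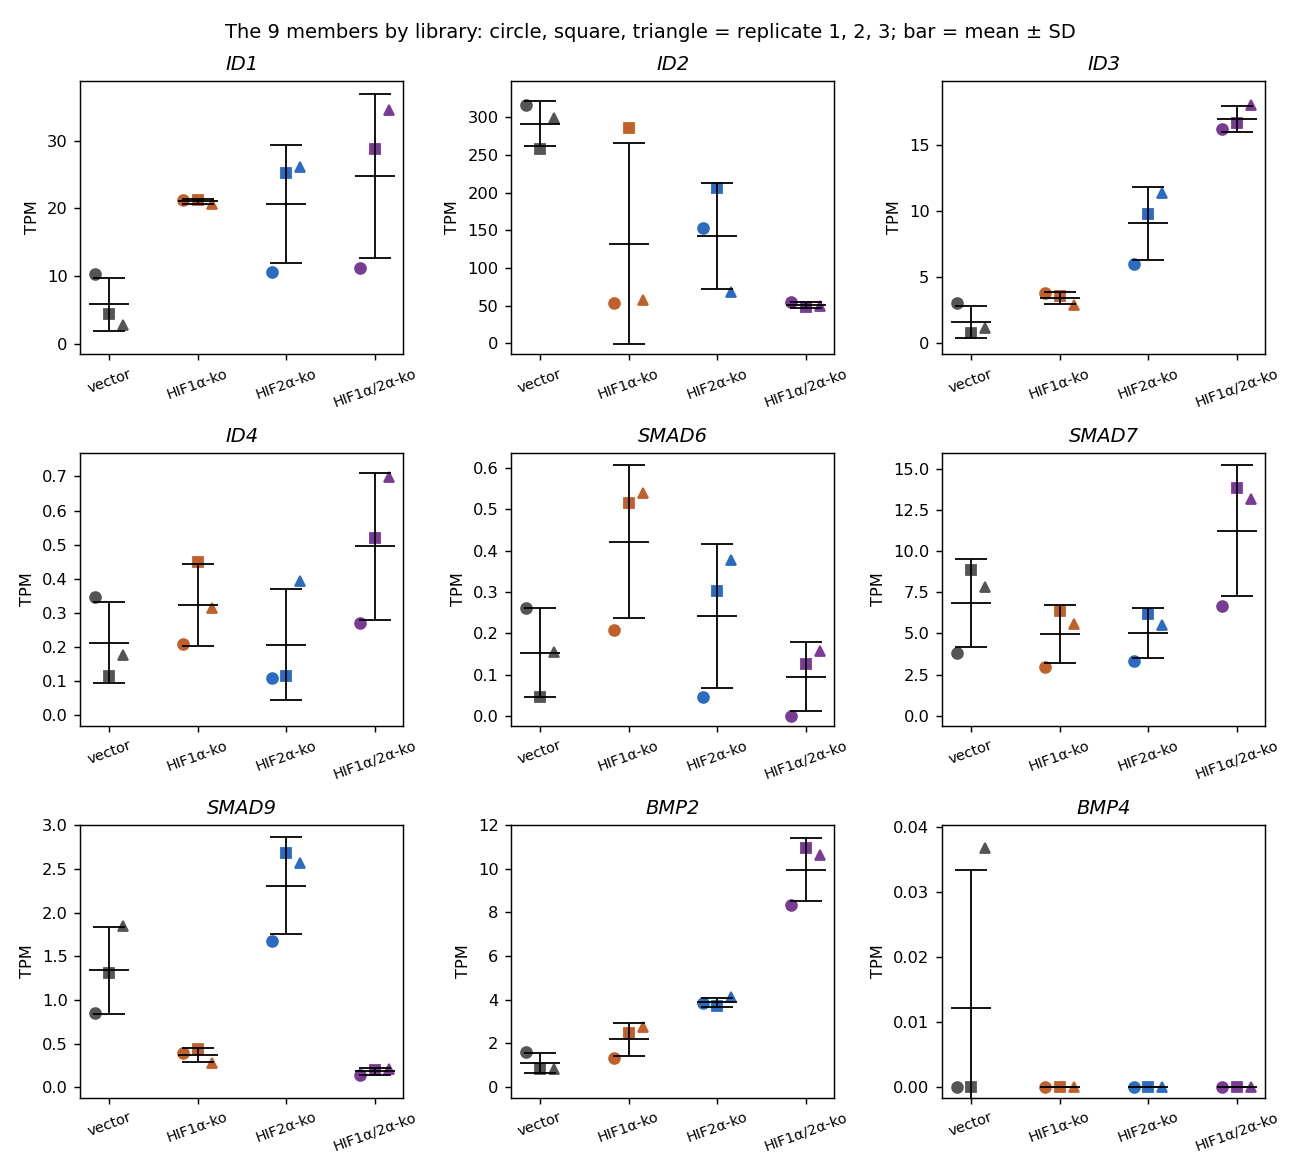
Each panel plots the TPM of 1 of the 9 genes (linear axis, its own scale) in the 12 libraries by group, with replicates 1, 2 and 3 as circle, square and triangle and the mean ± SD as a black bar. The means of ID3 and BMP2 were lowest in vector and highest in HIF1α/2α-ko, where BMP2 lay between 8.33 and 10.9 TPM, and SMAD9 was lowest in the groups knocked out for HIF1α.

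Among the ligands, BMP2 (ENSG00000125845, GRCh38 chromosome 20, from 6767664 to 6780280, protein-coding), a ligand of the BMP receptors, was at 1.62, 0.819 and 0.829 TPM in vector replicates 1 to 3 and at 1.32, 2.48 and 2.74 in HIF1α-ko. It was at 3.85, 3.70 and 4.10 TPM in HIF2α-ko and at 8.33, 10.9 and 10.6 in the dual knockout. The dual knockout libraries were thus all above every other library, the HIF2α-ko libraries were all above the vector and HIF1α-ko libraries, and vector and HIF1α-ko overlapped. On the log2(TPM + 1) scale the difference from vector was 0.60 for HIF1α-ko (95% interval 0.14 to 1.06, not called), 1.25 for HIF2α-ko (0.79 to 1.71) and 2.41 for the dual knockout (1.95 to 2.86). Relative to the median of all genes these were 0.42, 1.29 and 2.20. The dual knockout exceeded HIF1α-ko by 1.81 and HIF2α-ko by 1.16 (SE 0.21 for each difference). The 4 calls of BMP2 (2 against vector, 2 between knockouts) were made in all 20 alternatives that kept the gene. Vector replicates 2 and 3 were under 1 TPM, so BMP2 passed the filter mainly through the knockout groups, where its mean was higher. Its calls against vector carry that limit. Without vector replicate 1 the difference in HIF1α-ko was 0.77 and was called, and it was also called without HIF1α-ko replicate 1 (0.81) or dual knockout replicate 1 (0.60). BMP4 (ENSG00000125378, chromosome 14, from 53949736 to 53958761), a second ligand, was listed at 0 in 11 libraries and at 0.0367 TPM in vector replicate 3.

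SMAD9 (ENSG00000120693, chromosome 13, from 36844831 to 36920765, minus strand) encodes a receptor SMAD of the BMP branch. Its level was 0.851, 1.31 and 1.85 TPM in vector, and 0.391, 0.438 and 0.275 in HIF1α-ko. In HIF2α-ko it was 1.67, 2.69 and 2.57 TPM, and in the dual knockout 0.136, 0.200 and 0.209. The level was thus highest in HIF2α-ko, next in vector, then in HIF1α-ko and lowest in the dual knockout, with an overlap only between HIF2α-ko and vector. The difference from vector on the log2 scale was -0.75 for HIF1α-ko (95% interval -1.14 to -0.36), 0.51 for HIF2α-ko (0.12 to 0.90, not called) and -0.96 for the dual knockout (-1.35 to -0.57). The dual knockout lay -1.47 from HIF2α-ko (SE 0.18, called) and -0.21 from HIF1α-ko (-0.60 to 0.18, not called). The 3 calls of SMAD9 were made in all 20 alternatives that kept it. SMAD9 was under 1 TPM in every library of HIF1α-ko and the dual knockout. It passed the filter only through HIF2α-ko and vector, the groups where it was high, so its calls carry that limit. Its interaction was -0.72 (-1.27 to -0.17, not called), and it was called with median ratio scaling (-0.75) or a pseudocount of 0.1 (-1.51), without vector replicate 3 or HIF2α-ko replicate 1 (-0.87 in both) and without replicate 1 of every group (-0.67). At levels this low the pseudocount of 1 shrinks the differences, and with a pseudocount of 0.1 the value in the dual knockout was -2.30.

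Of the inhibitory SMADs, SMAD7 (ENSG00000101665, chromosome 18, from 48919853 to 48952052, minus strand), which recruits ubiquitin ligases to the receptors, was at 3.79, 8.85 and 7.83 TPM in vector and at 2.94, 6.33 and 5.56 in HIF1α-ko. It was at 3.31, 6.2 and 5.53 TPM in HIF2α-ko and at 6.65, 13.8 and 13.2 in the dual knockout. Replicate 1 was the lowest library in every group, and the dual knockout libraries lay above all libraries of both single knockouts but overlapped with vector. The difference from vector was -0.38 for HIF1α-ko (95% interval -1.13 to 0.38), -0.35 for HIF2α-ko (-1.10 to 0.41) and 0.65 for the dual knockout (-0.11 to 1.40), and none was called. The dual knockout exceeded HIF1α-ko by 1.03 (0.27 to 1.78) and HIF2α-ko by 1.00 (0.24 to 1.75), both called. The first call was lost without HIF1α-ko replicate 1 (0.76) or 3 (1.12), dual knockout replicate 2 (0.86) or 3 (0.89), and, with the value unmoved, without HIF2α-ko replicate 2 or 3 or vector replicate 3. The second was lost without HIF2α-ko replicate 1 (0.77) or 3 (1.07) or dual knockout replicate 2 (0.83) or 3 (0.86), and with median ratio scaling (0.75). Without replicate 1 of every group the differences from vector were -0.43, -0.44 and 0.64 and all were called, and without dual knockout replicate 1 alone the last was 0.96 and called. The interaction of SMAD7 was 1.38 (0.31 to 2.44, not called), and it was called without vector replicate 1 (1.70), dual knockout replicate 1 (1.68) or replicate 1 of every group (1.51). SMAD6 (ENSG00000137834, chromosome 15, from 66702228 to 66782848), the inhibitory SMAD more particular to BMP receptors, did not pass the filter. It was at 0.260, 0.0465 and 0.154 TPM in vector, 0.209, 0.516 and 0.540 for HIF1α-ko, 0.0449, 0.302 and 0.378 for HIF2α-ko, and 0, 0.125 and 0.158 for the dual knockout.

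ID1 (ENSG00000125968, chromosome 20, from 31605283 to 31606515), the ID gene most often used as a readout of BMP receptors, was at 10.2, 4.34 and 2.79 TPM in vector and at 21.2, 21.3 and 20.6 for HIF1α-ko. It was at 10.6, 25.3 and 26.0 TPM in HIF2α-ko and at 11.2, 28.7 and 34.5 in the dual knockout. Every knockout library was above every vector library, but replicate 1 of HIF2α-ko and of the dual knockout exceeded vector replicate 1 by little, and the 3 knockout groups overlapped. The difference from vector was 1.85 for HIF1α-ko (95% interval 0.86 to 2.84), 1.73 for HIF2α-ko (0.74 to 2.71) and 1.94 for the dual knockout (0.96 to 2.93), all called. The dual knockout lay 0.09 from HIF1α-ko (-0.89 to 1.08) and 0.22 from HIF2α-ko (-0.77 to 1.2), neither of them called. The interaction of ID1 was -1.63 (-3.03 to -0.24, not called), and it was called without vector replicate 1 (-2.07), HIF2α-ko replicate 1 (-2.03) or replicate 1 of every group (-2.00), and with quantile normalization (-1.78). The HIF1α-ko call of ID1 needed vector replicate 3 and was not made without it (1.51). The HIF2α-ko call of ID1 was likewise not made without vector replicate 2 (1.63) or 3 (1.38) or without HIF2α-ko replicate 2 (1.54) or 3 (1.52). Without vector replicate 1 the differences were 2.29, 2.17 and 2.38, and without replicate 1 of every group 2.28, 2.57 and 2.85.

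ID3 (ENSG00000117318, chromosome 1, from 23557918 to 23559794, minus strand), which is often expressed together with ID1, was at 3.03, 0.757 and 1.15 TPM in vector and at 3.78, 3.61 and 2.92 in HIF1α-ko. It was at 6.04, 9.82 and 11.4 TPM in HIF2α-ko and at 16.2, 16.7 and 18.0 in the dual knockout. Levels stepped up from vector to HIF1α-ko, from there to HIF2α-ko and again to the dual knockout, with an overlap only between vector and HIF1α-ko. The difference from vector was 0.83 for HIF1α-ko (95% interval 0.22 to 1.45), 1.98 for HIF2α-ko (1.37 to 2.60) and 2.86 for the dual knockout (2.24 to 3.47), all called. The last 2 were called in all 21 alternatives, and the first in 7. The HIF1α-ko call was lost without vector replicate 2 (0.59) or 3 (0.73), without HIF1α-ko replicate 1 (0.78), 2 (0.80) or 3 (0.92), and, with the value unmoved, without replicate 2 or 3 of HIF2α-ko or of HIF1α/2α-ko. The dual knockout exceeded HIF1α-ko by 2.02 (1.40 to 2.64), and HIF2α-ko by 0.87 (0.26 to 1.49). This second call was lost without HIF2α-ko replicate 1 (0.63) or dual knockout replicate 2 (0.88) or 3 (0.83). The interaction was 0.04 (-0.83 to 0.91), so on this scale the dual difference lay near the sum of the single differences, within a wide interval. Without vector replicate 1 the differences from vector were 1.19, 2.33 and 3.21.

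ID2 (ENSG00000115738, chromosome 2, from 8678845 to 8684453), the most abundant ID transcript in 12 of 12 libraries, went the other way. It was at 316, 258 and 300 TPM in vector and at 55.2, 47.8 and 49.1 in the dual knockout. In HIF1α-ko it was at 53.4, 286 and 57.7 TPM, and in HIF2α-ko at 153, 206 and 67.7. All HIF2α-ko and dual knockout libraries were below all vector libraries, whereas HIF1α-ko replicate 2 lay within the vector range and far above replicates 1 and 3 of its group. The difference from vector was -1.59 for HIF1α-ko (95% interval -2.74 to -0.43, called), -1.17 for HIF2α-ko (-2.32 to -0.01, not called) and -2.5 for the dual knockout (-3.65 to -1.34, called). Without HIF1α-ko replicate 2 these were -2.37, -1.17 and -2.5, and all 3 were called. The HIF1α-ko call was made in 10 of 21 alternatives. It was lost without vector replicate 1 (-1.52), 2 (-1.67) or 3 (-1.56), HIF1α-ko replicate 1 (-1.17) or 3 (-1.22), and, with the value unmoved, without HIF2α-ko replicate 1 or dual knockout replicate 2 or 3. The dual knockout call was made in all 21. The dual knockout lay -0.91 from HIF1α-ko (-2.06 to 0.24) and -1.33 from HIF2α-ko (-2.49 to -0.18), neither called. Leaving out HIF1α-ko replicate 2 brought the first to -0.13. With the replicate number as a block, which pairs the knockout groups, the difference from HIF2α-ko was called at the same value, and it was also called without HIF1α-ko replicate 1 or 2 (-1.33) or HIF2α-ko replicate 3 (-1.79). GENCODE 29 places the antisense gene ID2-AS1 over ID2, and whether the counting used strand is not given in the sources used here, so reads of both cannot be told apart.

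ID4 (ENSG00000172201, chromosome 6, from 19837386 to 19840684), the ID gene tied to neural precursors, did not pass the filter. It was at 0.345, 0.116 and 0.177 TPM in vector, 0.208, 0.449 and 0.315 for HIF1α-ko, 0.11, 0.116 and 0.394 for HIF2α-ko, and 0.269, 0.518 and 0.699 for the dual knockout. All groups overlapped with vector.

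Because TPM is per length, the ID genes could be added up within a library. Their summed level was 299 ± 33.4 TPM in vector, 157 ± 133 for HIF1α-ko, 172 ± 68.0 for HIF2α-ko and 93.0 ± 9.76 for the dual knockout (mean ± SD, n = 3). ID2 made up 95.9%, 98.0% and 98.6% of the sum in the vector libraries and 66.6%, 51.0% and 48.0% in the dual knockout libraries. In between, it made up 67.9%, 91.9% and 70.8% in HIF1α-ko and 90.1%, 85.4% and 64.2% in HIF2α-ko, so every knockout library was below every vector library. The sum of ID1 and ID3 was 7.43 ± 5.08 TPM in vector, 24.4 ± 0.826 for HIF1α-ko, 29.7 ± 11.4 for HIF2α-ko and 41.8 ± 12.9 for the dual knockout. The ratio of ID2 to ID1 ranged from 30.9 to 107 in vector and from 1.42 to 4.91 in the dual knockout.

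**Figure D2:**
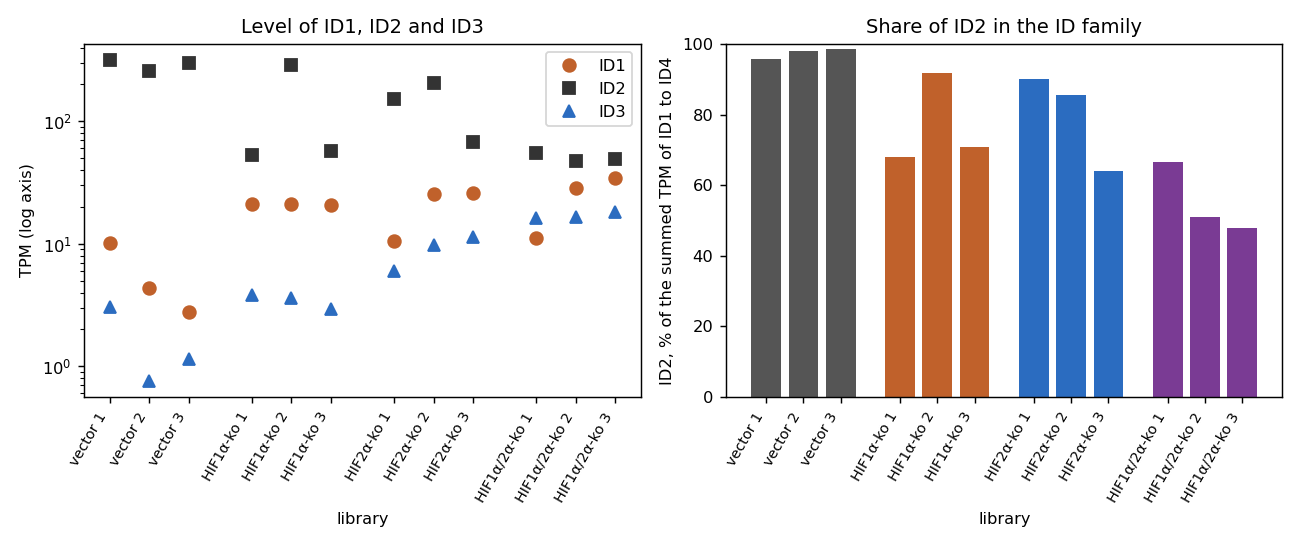
The left panel plots the TPM of ID1, ID2 and ID3 (log axis) in each of the 12 libraries, and the right panel plots ID2 as a percent of the summed TPM of ID1 to ID4, with 1 bar a library. ID2 made up 95.9% or more of the sum in each vector library and 48.0% to 66.6% in the dual knockout libraries, where the 3 genes drew closest.

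**Figure D3:**
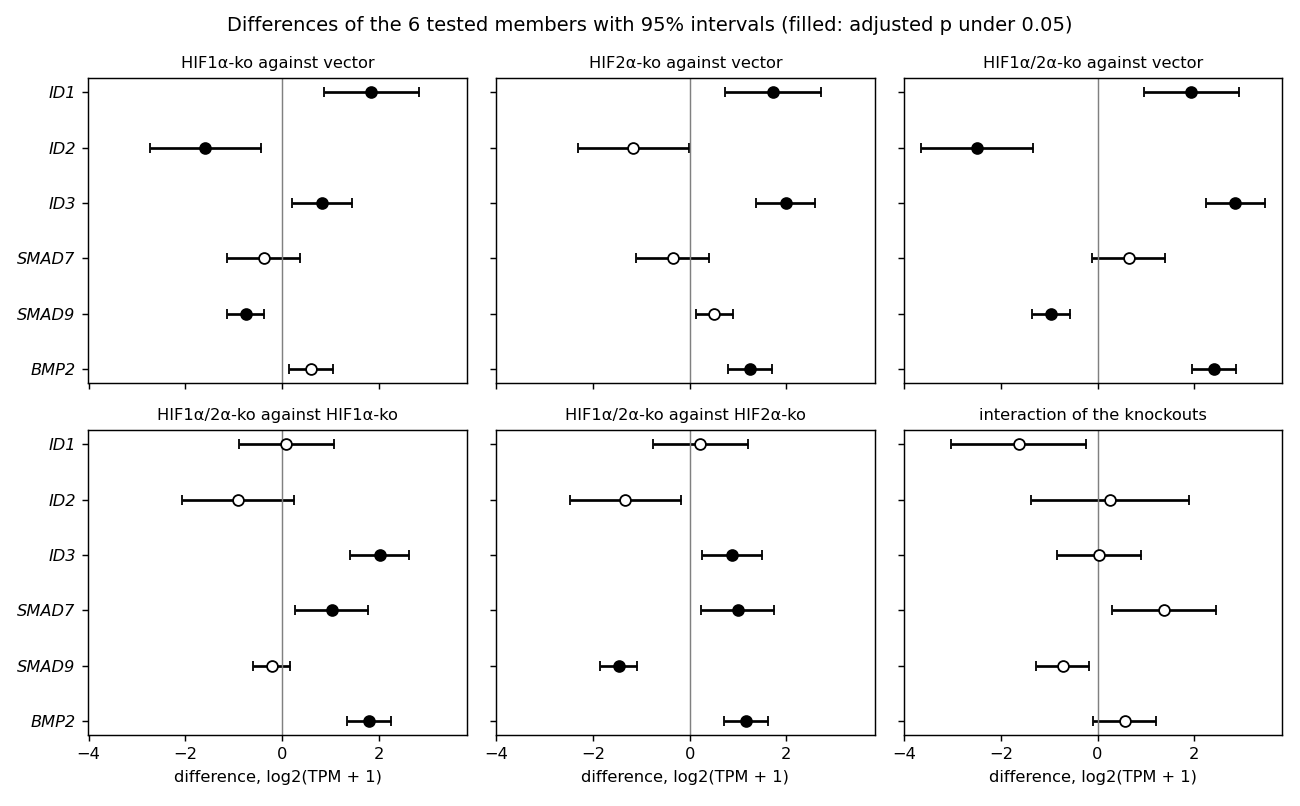
Each panel plots 1 comparison, with the fitted difference on the log2(TPM + 1) scale on the x axis and the 6 tested genes on the y axis; bars are 95% intervals and filled points are called. ID1, ID3 and BMP2 lie to the right in the comparisons with vector and ID2 to the left, with ID2 at -2.5 in the dual knockout.

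Among the tested genes outside the 9, those whose pattern over the 12 libraries lay nearest to each ID gene were found by the root mean square difference of centred log2(TPM + 1). For ID1 they were PTX3 (0.35), SLC16A13 (0.37) and PRNP (0.41), and for ID3 CXCL2 (0.35), KYNU (0.47) and PLK3 (0.48). PTX3, a secreted pentraxin, thus lay nearest to ID1, and CXCL2, a chemokine, nearest to ID3. For ID2 the nearest were SMIM10 (0.66), CITED2 (0.68) and EYA1 (0.70). This measure is not scaled and grows with a gene's own spread, which was wide for ID2. The distances therefore do not show which ID gene was followed most closely. CITED2 encodes a hypoxia-inducible competitor of the HIF subunits for their coactivator.

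The rest of the pathway was described with 82 other genes in 7 lists, of which 46 passed the filter. These lists too were chosen with values from these libraries known, so their counts and their adjusted p, taken over all tested genes, are not independent evidence. With limma's adjusted p, 8 of the 46 were called for HIF1α-ko (4 higher, 4 lower), 6 for HIF2α-ko (0 higher, 6 lower) and 19 for the dual knockout (10 higher, 9 lower), where 26.1%, 11.0% and 46.7% of all tested genes were called. The 11.0% for HIF2α-ko was made up of 5.07% of all tested genes called higher and 5.89% called lower. In HIF2α-ko, where 0 were called higher, the median difference of the 46 genes was -0.29 beside -0.04 over all tested genes. In HIF1α/2α-ko it was 0.16 beside 0.21, and in HIF1α-ko 0.22 beside 0.18. The dual knockout differed from HIF1α-ko in 13 (7 higher, 6 lower) and from HIF2α-ko in 26 (20 higher, 6 lower), beside 28.3% and 46.4% of all tested genes. After median ratio scaling the higher and lower counts were 2 and 5 in HIF1α-ko, beside 10.9% and 13.1% of all tested genes. They were 16 and 8 in the dual knockout against HIF2α-ko, beside 23.4% and 21.2%. The count in HIF1α-ko was 13 without vector replicate 1, and that in HIF2α-ko was 10. Over all tested genes 24.1% were then called higher and 11.6% lower in HIF1α-ko, and 11.1% and 10.2% in HIF2α-ko.

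Of 12 other BMP-class ligands, 2 passed the filter. BMP7 was at 0.845 ± 0.118 TPM in vector and at 0.179 ± 0.0389 in the dual knockout (n = 3), and it fell there by 0.64 on the log2 scale (adjusted p = 0.0055 from limma). It was at 1.18 ± 0.0777 TPM in HIF1α-ko and 1.40 ± 0.492 in HIF2α-ko, neither called. Every vector and dual knockout library was under 1 TPM, so BMP7 passed the filter only through the single knockouts, where it was high. Its adjusted p carries that limit. BMP7 thus fell in the dual knockout, where BMP2 was highest. GDF5 was at 3.51 ± 1.19 TPM in vector and 5.89 ± 1.28 in the dual knockout (adjusted p = 0.067). It was called against vector without vector replicate 1 (0.81) or HIF1α-ko replicate 1 (0.63).

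Of 11 receptors and co-receptors 7 were tested, and none was called in HIF1α-ko with all libraries, beside 26.1% of all tested genes. Without vector replicate 1, the co-receptor gene ENG (0.93, adjusted p = 0.0039 from limma) and ACVRL1 (0.89, adjusted p = 0.030) were called higher there, ENG also in the dual knockout (0.53, adjusted p = 0.040) and ACVRL1 in HIF2α-ko (0.95, adjusted p = 0.034). In HIF1α/2α-ko, ACVRL1, a type I receptor best known from endothelium, fell from 8.08 ± 3.42 to 4.2 ± 1.06 TPM (adjusted p = 0.0496 from limma), but this call was made in 11 of 21 alternatives only. It was lost without vector replicate 1 (-0.47, adjusted p = 0.186) or 2 (0.0721), dual knockout replicate 2 (0.175) or 3 (0.0821), HIF1α-ko replicate 2 (0.0631) or HIF2α-ko replicate 2 (0.0576) or 3 (0.0624). Of the endothelial markers CDH5 reached 3.63, VWF 2.93, KDR 1.31 and PECAM1 1.19 TPM, and their part in the level of ACVRL1 was not tested. In HIF2α-ko, RGMB, a BMP co-receptor, fell from 19.9 ± 1.12 to 12 ± 0.584 TPM (adjusted p = 0.037). This call was lost without any 1 of the HIF2α-ko libraries, vector replicate 2 or 3 or HIF1α-ko replicate 3, with adjusted p from 0.0555 to 0.116. The type II receptor BMPR2 was at 2.41 ± 0.229 TPM in vector and 1.40 ± 0.453 in HIF2α-ko, and the dual knockout exceeded HIF2α-ko by 0.77 (adjusted p = 0.0054). The type I receptor ACVR1 exceeded HIF2α-ko there by 0.82 (adjusted p = 0.039), a call lost in 7 of 21 alternatives, among them without HIF2α-ko replicate 1 (0.67) or 2 (0.87) and dual knockout replicate 2 (0.80) or 3 (0.73). Without HIF1α-ko replicate 1, ACVR1 was called higher than vector in HIF1α-ko (0.90, adjusted p = 0.012) and in the dual knockout (0.57, adjusted p = 0.028). With all libraries BMPR1A, ACVR2B and ENG were called in no comparison.

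Of the receptor SMADs and their partner, SMAD1 was at 0.817 ± 0.761 TPM in vector, 1.68 ± 0.390 for HIF1α-ko, 0.401 ± 0.0619 for HIF2α-ko and 4.17 ± 1.67 for the dual knockout. It rose in the dual knockout by 1.53 on the log2 scale (adjusted p = 0.001 from limma), whereas SMAD9 was lowest there. SMAD1 passed the filter mainly through HIF1α-ko and the dual knockout, the groups where it was high. SMAD1 also exceeded HIF2α-ko by 1.83 (adjusted p = 0.0003) and HIF1α-ko by 0.90 (adjusted p = 0.034). The last call was lost without HIF1α-ko replicate 1 or 3 (0.84) or dual knockout replicate 2 (0.77) or 3 (0.72). Without vector replicate 1 SMAD1 was also called higher in HIF1α-ko (0.95, adjusted p = 0.014). SMAD4 was at 5.85 ± 0.772 TPM in vector and 7.72 ± 1.71 in the dual knockout (adjusted p = 0.14), and SMAD5 at 4.82 ± 2.12 and 3.61 ± 0.996 (adjusted p = 0.41).

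Of 17 BMP antagonists and extracellular modulators 10 were tested, and 5 were called in the dual knockout, near the 46.7% of all tested genes called there. BAMBI, a pseudoreceptor that blocks signalling and is itself a BMP target, was at 109 ± 6.26 TPM in vector, 97.2 ± 4.78 for HIF1α-ko, 107 ± 20.2 for HIF2α-ko and 303 ± 101 for the dual knockout. Its rise in the dual knockout was 1.42 on the log2 scale (adjusted p = 0.00011 from limma), with all 3 libraries above all others. FST, the activin and BMP binding protein follistatin, rose from 0.959 ± 0.207 to 3.15 ± 0.626 TPM (adjusted p = 0.00023). FST passed the filter mainly through HIF1α-ko and the dual knockout, the groups where it was high, so its adjusted p in both carries that limit. The BMP binding proteins CHRDL1, GREM1 and BMPER fell in the dual knockout. CHRDL1 went from 35.8 ± 7.52 to 12 ± 2.67 TPM (adjusted p = 6.6e-05), and it also fell in HIF1α-ko, to 16.3 ± 2.67 (adjusted p = 0.0024). GREM1 went from 8.50 ± 3.08 to 3.89 ± 0.544 TPM in the dual knockout (adjusted p = 0.006) and to 3.30 ± 0.915 in HIF2α-ko (adjusted p = 0.01), whereas in HIF1α-ko it was at 11.8 ± 1.73 and was called higher without vector replicate 1 (0.72, adjusted p = 0.017). BMPER fell by 1.01 on the log2 scale (adjusted p = 0.00047). In HIF1α-ko FST rose by 0.64 (adjusted p = 0.016), a call lost without HIF1α-ko replicate 3 (0.53).

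Of 13 genes of SMAD turnover and nuclear control 12 were tested, with 4 higher and 2 lower in the dual knockout. Of all tested genes 31.8% were called higher there and 14.8% lower. SMURF1, a ubiquitin ligase for BMP SMADs, rose from 7.58 ± 0.180 to 15.1 ± 1.30 TPM (adjusted p = 0.00044 from limma), and TOB1, a repressor of BMP SMADs, from 6.51 ± 0.572 to 13.3 ± 2.31 (adjusted p = 0.0007). The phosphatase gene PPM1A rose by 0.96 on the log2 scale (adjusted p = 0.0076; in HIF2α-ko it was called lower without vector replicate 1, at -0.79) and the corepressor gene SKI by 0.52 (adjusted p = 0.017). SKI lost its call without vector replicate 2 (0.43) or dual knockout replicate 2 (0.48) or 3 (0.44). NEDD4L, another ubiquitin ligase, fell from 30.6 ± 4.77 to 18.9 ± 2.74 TPM (adjusted p = 0.0032) and in HIF1α-ko to 15.0 ± 1.30 (adjusted p = 0.0012). RNF111, a ligase that removes inhibitors of the pathway, fell by 0.81 in the dual knockout (adjusted p = 0.01) and by 0.76 in HIF1α-ko (adjusted p = 0.028). The HIF1α-ko call of RNF111 was lost without vector replicate 3 (-0.57) or HIF1α-ko replicate 1 (-0.64) or 3 (-0.74). In HIF2α-ko TOB1 fell by 0.68 (adjusted p = 0.022), a call lost without vector replicate 3 (-0.66) or any 1 HIF2α-ko library (-0.64 to -0.72).

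Of 10 other known BMP target genes 5 were tested. MSX1, a homeobox gene, was at 2.23 ± 0.743 TPM in vector, 3.42 ± 0.741 for HIF1α-ko, 2.03 ± 0.370 for HIF2α-ko and 10.6 ± 1.13 for the dual knockout, a rise of 1.87 on the log2 scale for the dual knockout (adjusted p = 1.9e-05 from limma). HEY1, a repressor shared with the Notch pathway, rose there by 1.43 (adjusted p = 0.00068), from 0.631 ± 0.358 to 3.49 ± 1.45 TPM. HEY1 passed the filter mainly through HIF1α-ko and the dual knockout, the groups where it was high. SNAI2, a regulator of mesenchymal transition, fell from 211 ± 99.6 TPM in vector to 81.5 ± 10.2 for HIF1α-ko (adjusted p = 0.01), 58.2 ± 5.20 for HIF2α-ko (adjusted p = 0.0053) and 104 ± 27.6 for the dual knockout (adjusted p = 0.021). The last call was lost without vector replicate 2 (-0.87) or 3 (-0.59) or dual knockout replicate 2 (-0.79) or 3 (-0.86). RUNX2, a bone regulator, fell in HIF2α-ko by 0.86 (adjusted p = 0.012). HEY1 rose in HIF1α-ko by 0.74 (adjusted p = 0.049), a call made in 9 of 20 alternatives and lost without replicate 1 or 3 of vector, any 1 library of HIF1α-ko, replicate 2 or 3 of HIF2α-ko, or replicate 3 of HIF1α/2α-ko, with adjusted p from 0.0616 to 0.174. Of the 5 tested genes of this list, MSX1 and HEY1 thus rose in the dual knockout, SNAI2 fell, and RUNX2 and GATA2 were not called. Of all tested genes 31.8% were called higher there. BAMBI, from the list of antagonists, also rose there, and ID1 and ID3 were higher, whereas ID2 was lower.

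Of 16 bHLH partners of ID proteins 7 were tested. In HIF1α/2α-ko the oligodendrocyte lineage factor OLIG2 rose by 2.31 on the log2 scale (adjusted p = 0.00083 from limma), from 1.91 ± 0.932 to 13.8 ± 5.84 TPM. TCF4, an E protein, fell there from 3.31 ± 1.13 to 0.810 ± 0.408 TPM (adjusted p = 0.0011). TCF3, another E protein, was at 48.5 ± 18.0 TPM in vector, 43.8 ± 4.38 for HIF1α-ko, 27.4 ± 1.46 for HIF2α-ko and 64.3 ± 5.03 for the dual knockout. It fell in HIF2α-ko (adjusted p = 0.04), a call made in 9 of 21 alternatives and lost without vector replicate 2 (-0.77) or 3 (-0.47), any 1 HIF2α-ko library (-0.70 to -0.78), or replicate 2 or 3 of HIF1α-ko or HIF1α/2α-ko (-0.74). In HIF1α-ko TWIST2 rose from 1.68 ± 1.26 to 4.98 ± 1.55 TPM (adjusted p = 0.0094), and TWIST1 by 0.74 (adjusted p = 0.01). Without vector replicate 1, TWIST2 was also called higher in the dual knockout (0.83, adjusted p = 0.011) and TWIST1 lower in HIF2α-ko (-0.62, adjusted p = 0.043).

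**Figure D4:**
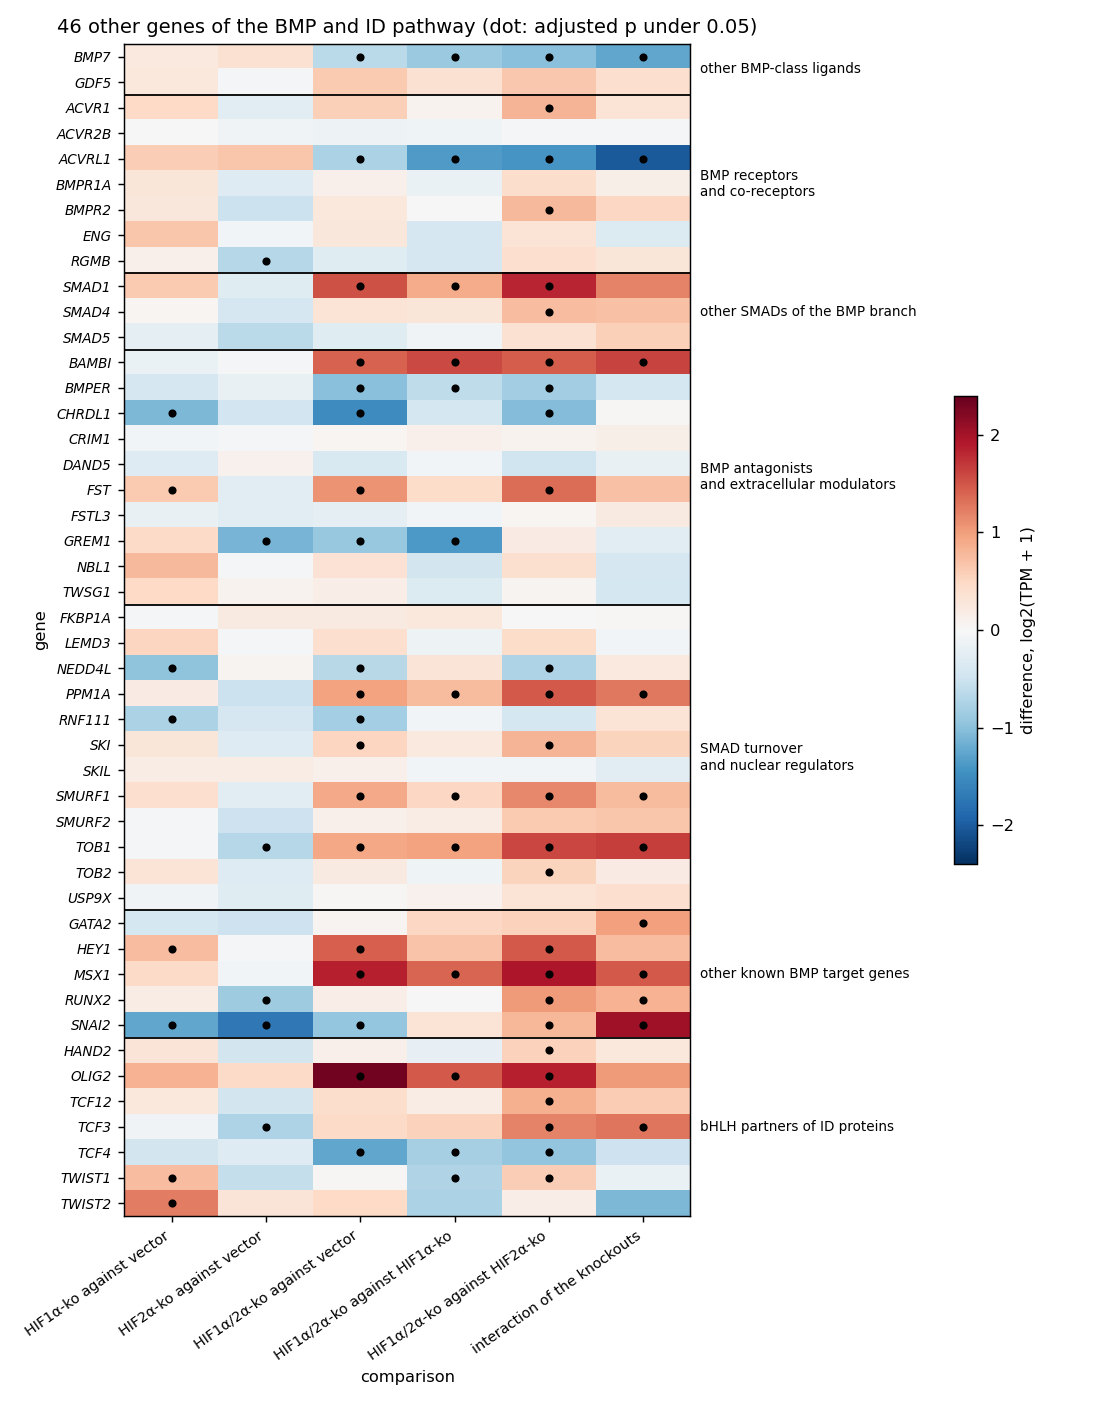
Rows are the 46 tested pathway genes in 7 lists, columns are the 6 comparisons, colour is the fitted difference on the log2(TPM + 1) scale and a dot marks an adjusted p under 0.05. The HIF2α-ko column holds 6 dots, all blue, where 11.0% of all tested genes were called, 5.07% higher and 5.89% lower. The column of the dual knockout against HIF2α-ko holds 26, of which 20 are red, where 46.4% of all tested genes were called and 33.5% called higher.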

How the data were processed

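Poly(A)-selected mRNA of 12 U-87 MG libraries was sequenced by the authors, who deposited TPM values, 1 column a library and 20263 genes. The submitters' notes name FastQC 0.11.2, Trimmomatic 0.36, HISAT2 2.0, bedtools 2.26.0 and GRCh38, without saying how reads were counted. The vector columns are those that carry no code of a knockout. The members and lists were chosen with earlier results of these data known.

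TPM was transformed to log2(TPM + 1). The 11731 genes with at least 1 TPM in at least 3 libraries entered limma (version 3.58.1, R 4.3.3), with a trend of variance on mean and all 4 groups in 1 model, and Benjamini-Hochberg adjustment ran within each contrast. The fit was tested on simulated data in which 200 genes were changed by 1 on the log2 scale in the dual knockout. It recovered 62.5% of these against vector and called 9 unchanged genes. A difference near 1 that was not called is thus no evidence of an equal level. The noise was drawn independently for each library, without the shared deviations of same-numbered libraries. Differences understate the change of low genes. Depth is unknown from TPM, so no counting interval is given. Positions come from GENCODE 29 and figures from matplotlib 3.10.9.

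The genes named were the members, every tested receptor and BMP-branch SMAD, and in each list the 3 smallest p in the dual knockout and the smallest in each single knockout. BMPER, PPM1A, RNF111, SKI, TOB2, GATA2, RUNX2, HAND2, TCF12 and TWIST1 do not follow this rule and were added once their values had been seen.

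Alternatives were a pseudocount of 0.1, no filter, a mean TPM of at least 5, median ratio scaling, quantile normalization, 2 groups only, no trend, a replicate block and each library left out. The fit without replicate 1 of every group was chosen after seeing the data. Same-numbered libraries deviated together among the 3 knockout groups (r from 0.196 to 0.508 across genes), so the numbers were taken to pair these. Against vector (-0.0265 to 0.163) they were not.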

Additional observations from a re-analysis of the deposited data

Results flagged for a closer look

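The interaction asks whether the difference in the dual knockout equals the sum of the differences in the single knockouts, that is, whether the effect of 1 knockout differs with the state of the other gene. With limma's adjusted p it was called for 11 of the 46 tested pathway genes, 9 above and 2 below the sum, beside 20.6% of all tested genes. Among the antagonists and target genes it was 1.63 on the log2 scale for BAMBI (adjusted p = 0.0027), 1.48 for MSX1 (adjusted p = 0.0044) and 2.04 for SNAI2 (adjusted p = 0.0063). For BAMBI and MSX1 neither single knockout was called and the dual knockout was, whereas SNAI2 fell in both single knockouts and by less in the dual knockout than their sum. It was 1.65 for TOB1 (adjusted p = 0.0013) and 1.29 for TCF3 (adjusted p = 0.011). BMP7 (-1.24, adjusted p = 0.0036) and ACVRL1 (-2.02, adjusted p = 0.0063) lay below the sum. BMP7 passed the filter only through the single knockouts, and high values there push the interaction down, so nothing is read from its p. SMURF1 (0.75, adjusted p = 0.028), PPM1A (1.26, adjusted p = 0.026), RUNX2 (0.84, adjusted p = 0.037) and GATA2 (0.98, adjusted p = 0.045) were called, but each lost its call in at least 6 of the 12 fits without 1 library, with adjusted p up to 0.0722 for SMURF1, 0.0635 for PPM1A, 0.0900 for RUNX2 and 0.108 for GATA2.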

How the results depend on the processing

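No called difference of a member or other named gene changed sign under the alternatives run. ID1 in the dual knockout against HIF1α-ko was not called, and its difference went from 0.09 to -0.03 with quantile normalization. Of the values of the members under the alternatives, 710 moved by less than the replicate SD and 28 by more. For the interaction the yardstick was larger than that SD. Many of these fits cannot move a difference, such as another filter, no trend, the block or leaving out a library of a group not compared. The count of 710 is therefore largely fixed in advance and is no measure of stability. For the other named genes 4357 kept their side of the threshold, 169 lost a call and 128 gained one. The count of pathway genes in HIF1α-ko was 8, and 13 without vector replicate 1 and 22 without replicate 1 of every group. Over all tested genes the shares called higher and lower there were 17.3% and 8.77%. They were 24.1% and 11.6% without vector replicate 1, and 39.2% and 15.9% without replicate 1 of every group. In HIF2α-ko it was 6, and 3 with 2 groups only and 14 without replicate 1 of every group, where members called went from 3 to 5. Members called in HIF1α-ko went from 4 to 2 with no filter and to 2 with 2 groups only. In these fits 11.1% and 12.1% of all tested genes were called higher, and 5.74% and 6.19% lower. A filter at a mean TPM of 5, which tests fewer genes, brought pathway genes in the dual knockout from 19 to 10 and members from 5 to 3. Of all genes then tested, 33.7% were called higher there and 15.1% lower. This filter brought pathway genes against HIF1α-ko from 13 to 7, pathway genes and members against HIF2α-ko from 26 to 16 and from 4 to 2, and the interaction from 11 to 7. The shares of all genes then called higher and lower were 20.3% and 11.2% against HIF1α-ko and 34.9% and 12.9% against HIF2α-ko. For the interaction they were 16.2% and 8.44%. Leaving out 1 library gave 6 to 13, 3 to 10 and 16 to 21 pathway genes and 1 to 5, 2 to 4 and 5 to 6 members for HIF1α-ko, for HIF2α-ko and for the dual knockout, in that order. It gave 7 to 16 and 23 to 29 pathway genes and 2 to 3 and 2 to 5 members against HIF1α-ko and HIF2α-ko, and 7 to 15 for the interaction. The shares over all tested genes moved in these fits too. In HIF1α-ko the share called higher was 8.61% without HIF1α-ko replicate 3 and 24.1% without vector replicate 1. The causes were not tested.

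With the replicate block, pathway genes called were 12, 9 and 22 against vector, 17 against HIF1α-ko, 31 against HIF2α-ko and 13 for the interaction. Members called were 4, 3, 6, 3 and 5 in the same order, the interaction aside. The shares of all tested genes called higher were then 22.8%, 7.62% and 35.4% against vector, up from 17.3%, 5.07% and 31.8%. Against HIF1α-ko, against HIF2α-ko and for the interaction they were 21.5%, 37.3% and 18.1%, up from 17.7%, 33.5% and 13.2%. The shares called lower rose in every comparison as well. The larger pathway counts thus came with more calls over all tested genes. For SMAD7 the block brought the SE of a difference from 0.35 to 0.12, and HIF1α-ko (-0.38), the dual knockout (0.65) and the interaction (1.38) were then called, as was the interaction of SMAD9 (-0.72), although the numbers were not taken to pair vector with the knockouts. Between the knockout groups, which the numbers pair, the block added FST (adjusted p = 0.0374), HEY1 (0.0244), TCF3 (0.0395) and TWIST2 (0.0139) against HIF1α-ko, GDF5 (0.00434), BMPR1A (0.0476) and ID2 against HIF2α-ko, and changed no other call of a named gene. TPM keeps no depth, so what counting error adds to SMAD9 or other genes near 1 TPM is unknown.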
